A study of Mus musculus with 4 samples.

Results

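The 9 genes described here make, carry, bind or destroy retinoic acid: Stra6, Rdh10, Dhrs3, Aldh1a1, Aldh1a2, Aldh1a3, Crabp1, Crabp2 and Cyp26b1. They were taken by name, as every probe set that the array annotation assigns to one of these genes alone, which gave 12 probe sets for 9 genes among the 18193 genes with such a probe set. Their RNA was measured on Affymetrix mouse arrays in 2 lines of C57BL/6 neural stem cells, started from the telencephalon of embryonic day 14.5 mice and grown as floating spheres with PDGF and bFGF. NSCL61 is p53-/- and is labelled as resembling glioma-initiating cells. NSCL61-sox11 is p53-/- as well and also expresses the transcription factor Sox11; per the series' design text it no longer gave tumours after transplantation. The growth medium listed in the labels names no retinoid. Each line has 2 arrays and NSCL61-sox11 is a single line. Whether the arrays of a line stem from separate cultures is not stated, so p-values cover the spread among the arrays at hand, and that spread may be technical alone.

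Retinoic acid is made from vitamin A and acts as a ligand of nuclear receptors that switch genes on in development. Cells take up retinol, oxidise it reversibly to retinal with retinol dehydrogenases and then irreversibly to retinoic acid with retinaldehyde dehydrogenases, while binding proteins and CYP26 enzymes set how much of it reaches the receptors. In the embryonic forebrain retinoic acid comes in part from the meninges and the ventral telencephalon, and it is widely used to push neural stem cells towards differentiation.

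The clearest difference in the set was in Crabp1, a cytosolic binding protein of retinoic acid, which was 2.04-fold lower in NSCL61-sox11. Aldh1a3, a retinaldehyde dehydrogenase, was lower by 1.52-fold on 1 of its 3 probe sets. Rdh10, which makes retinal, had nearly equal values in both lines. Of the 12 probe sets, 6 (in 5 genes) were among the 27022 tested, the 60% with the highest mean, and 2 of these 6 were called lower and none higher at a limma adjusted p under 0.05; over all tested probe sets the share called was 17.3%. Counted by gene, with the brightest tested probe set standing for a gene, 2 of 5 members fell and 0 rose, against 9.19% of all 13084 genes that fell, 10% that rose and 19.2% called in either direction. One of these members is Aldh1a3, which passed the level filter only through its NSCL61 arrays and is not called with no filter, so the count is a description and supports nothing. The median log2 fold change of the 5 genes was -0.13, and that of all genes -0.02. The arrays of the lines did not overlap for 6 of the 12 probe sets, a share near the 52.1% seen over all non-control probe sets.

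**Figure D1:**
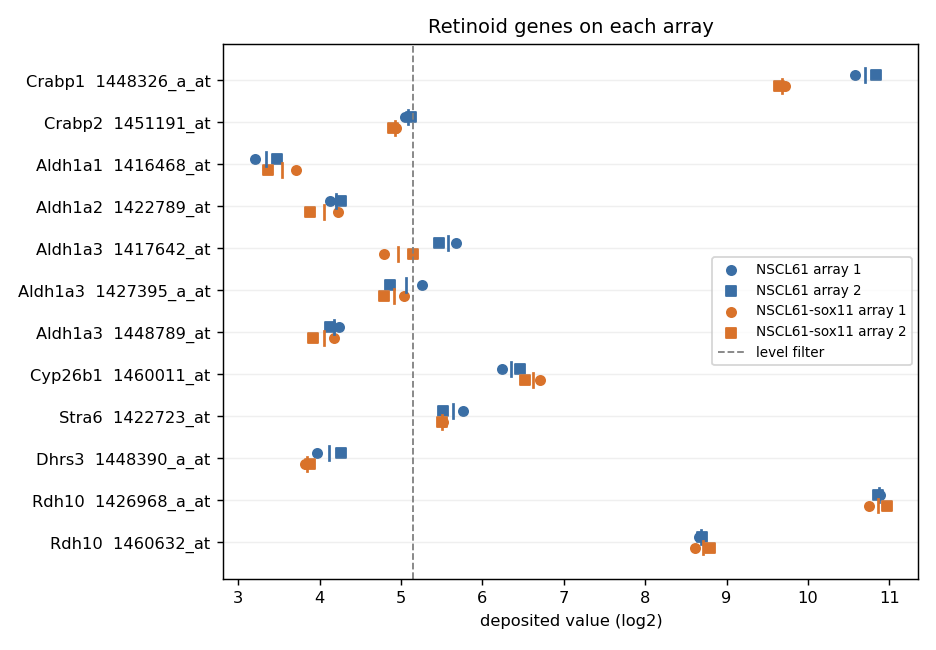
Deposited value (log2) of each retinoid probe set on each of the 4 arrays; circles are array 1, squares array 2, short vertical bars the mean of a line, and the dashed line the level filter (5.15). Crabp1 is the probe set whose lines stand farthest apart, with NSCL61 at 10.57 and 10.84 and NSCL61-sox11 at 9.72 and 9.64.

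The stretch around the start of Crabp1 is shown because Crabp1 is the called member for which the RefSeq promoter table holds an entry. It spans 250 bases before to 50 after the gene's start in GRCm38.p6, plus strand, at chr9:54764498-54764797, and the capitals mark GC boxes (GGGCGG on either strand).

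Crabp1: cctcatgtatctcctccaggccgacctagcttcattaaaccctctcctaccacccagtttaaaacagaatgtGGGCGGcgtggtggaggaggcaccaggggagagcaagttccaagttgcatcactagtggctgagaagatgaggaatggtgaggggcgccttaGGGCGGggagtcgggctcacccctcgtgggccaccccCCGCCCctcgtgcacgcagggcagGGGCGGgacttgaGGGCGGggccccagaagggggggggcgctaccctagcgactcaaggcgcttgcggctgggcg

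This stretch holds 5 GC boxes, 17 CpG dinucleotides and 65% G and C; the medians over 32851 promoter entries were 7 CpG and 52.7%. A GC box occurs in 35.7% of these entries and 5 or more occur in 2.71%. AGGTCA, a form of the half-site of retinoic acid receptors, was in none of the 12 entries of the 6 members that matched, on either strand. It was in 16.3% of all entries, and its direct repeat with a gap of 5 bases was in 0.00913%. Other forms of the half-site were not searched. ACAAT, the core that Sox factors bind, had no match in the Crabp1 stretch and occurs in 31% of entries. These are matches of letters, and the arrays read nothing at the promoter.

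Among the binding proteins, Crabp1 holds retinoic acid in the cytosol and is associated with its breakdown, and Crabp2 carries it to the nuclear receptors. Crabp1 had values of 10.57 and 10.84 on the NSCL61 arrays and 9.72 and 9.64 on the NSCL61-sox11 arrays. Both NSCL61 arrays were thus higher than both NSCL61-sox11 arrays. The means were 10.71 ± 0.19 and 9.68 ± 0.06 (SD, n = 2 each), a log2 fold change of -1.03 (SE 0.11, 95% interval -1.28 to -0.77, limma adjusted p = 0.0021). Crabp1 was 162nd by size among the 1202 genes that fell, of which 170 fell at least 2-fold. It fell and passed the test in every alternative that gave it a value, with log2 fold changes from -0.89 to -1.16 when 1 array was left out and adjusted p up to 0.016. It has only 1 probe set, whose name ends in _a_at, so the alternative without such probe sets gave it no value. Crabp2, at 5.05 and 5.12 in NSCL61 and 4.94 and 4.90 in NSCL61-sox11, lay below the level filter. Its difference in the fit of all probe sets was -0.16 (95% interval -0.42 to 0.09, adjusted p = 0.45), too wide to tell a small fall from none.

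The retinaldehyde dehydrogenases oxidise retinal to retinoic acid, the step that commits it. On its brightest probe set Aldh1a3 had 5.68 and 5.47 in NSCL61 and 4.78 and 5.15 in NSCL61-sox11. The arrays did not overlap, but the NSCL61-sox11 arrays lay no higher than 5.15, where the level filter was set, so the size of the change is uncertain. The log2 fold change was -0.61 (SE 0.15, 95% interval -0.98 to -0.23, limma adjusted p = 0.044). The adjusted p rose to 0.21 with NSCL61 array 1 left out, to 0.10 with NSCL61 array 2 left out, to 0.11 with NSCL61-sox11 array 1 left out and to 0.0501 with no level filter, which ends the call each time; with poly-A spike-in scaling the value was -1.01. The other probe sets of Aldh1a3 lay below the filter, overlapped between the lines and differed by -0.15 (adjusted p = 0.67) and -0.13 (adjusted p = 0.64), so all 3 were lower in NSCL61-sox11 and 1 passed the test.

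Aldh1a1 and Aldh1a2 both lay below the level filter. Aldh1a1 read 3.20 and 3.48 in NSCL61 and 3.71 and 3.36 in NSCL61-sox11. Aldh1a2, the main source of retinoic acid in the early embryo, read 4.13 and 4.26 against 4.23 and 3.88. In both genes the arrays of the lines overlapped, and the differences were 0.19 (95% interval -0.17 to 0.55, adjusted p = 0.54) and -0.14 (95% interval -0.47 to 0.19, adjusted p = 0.64) in the fit of all probe sets. In that fit limma called 0 of the 6 member probe sets below the level filter, and 0 had an unadjusted p under 0.05. It called 10.1% of all non-control probe sets, a share that includes the brighter ones above the filter.

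**Figure D2:**
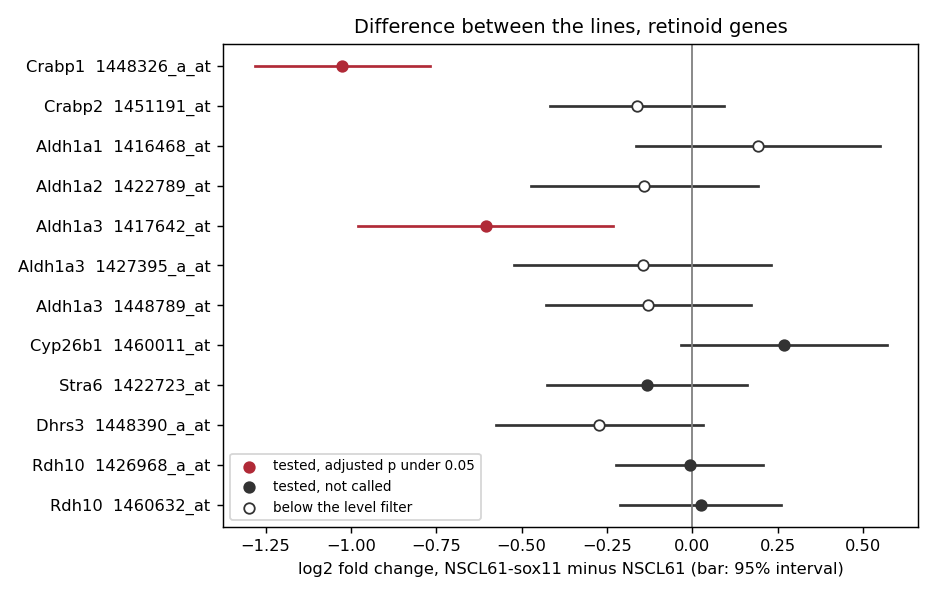
Log2 fold change (NSCL61-sox11 minus NSCL61) of each retinoid probe set with its moderated 95% interval; open circles are probe sets below the level filter, from the fit of all probe sets. Only the intervals of Crabp1 and of 1 Aldh1a3 probe set leave out 0; the widest interval of an open circle, on another Aldh1a3 probe set, runs from -0.52 to 0.23.

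The enzymes at the retinol step were Rdh10, which oxidises retinol to retinal and is needed for most retinoic acid in the embryo, and Dhrs3, which reduces retinal back to retinol. Rdh10 read 10.89 and 10.86 in NSCL61 and 10.75 and 10.97 in NSCL61-sox11 on its brighter probe set, so the NSCL61 arrays lay between those of the other line. The difference was -0.01 (SE 0.09, 95% interval -0.22 to 0.21, limma adjusted p = 0.96). Its second probe set, at 8.66, 8.70, 8.62 and 8.79 in the same order, differed by 0.02 (95% interval -0.21 to 0.26, adjusted p = 0.90). Both intervals leave out a change of the size seen in Crabp1. Dhrs3 read 3.97 and 4.26 in NSCL61 and 3.81 and 3.88 in NSCL61-sox11, below the filter, and differed by -0.27 (95% interval -0.58 to 0.03, adjusted p = 0.27).

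Cyp26b1 hydroxylates retinoic acid for clearance, and Stra6 is the membrane receptor that takes up retinol from its plasma carrier. Cyp26b1 read 6.24 and 6.46 in NSCL61 and 6.71 and 6.52 in NSCL61-sox11. It is the only tested member gene with a higher mean in NSCL61-sox11 and did not pass the test (log2 fold change 0.27, SE 0.12, 95% interval -0.03 to 0.57, limma adjusted p = 0.20), and with poly-A spike-in scaling its value was -0.14. Stra6 read 5.76 and 5.52 in NSCL61 and 5.51 and 5.50 in NSCL61-sox11, a difference of -0.13 (95% interval -0.42 to 0.16, adjusted p = 0.51). Its NSCL61 array 2 and its NSCL61-sox11 arrays nearly coincided.

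**Figure D3:**
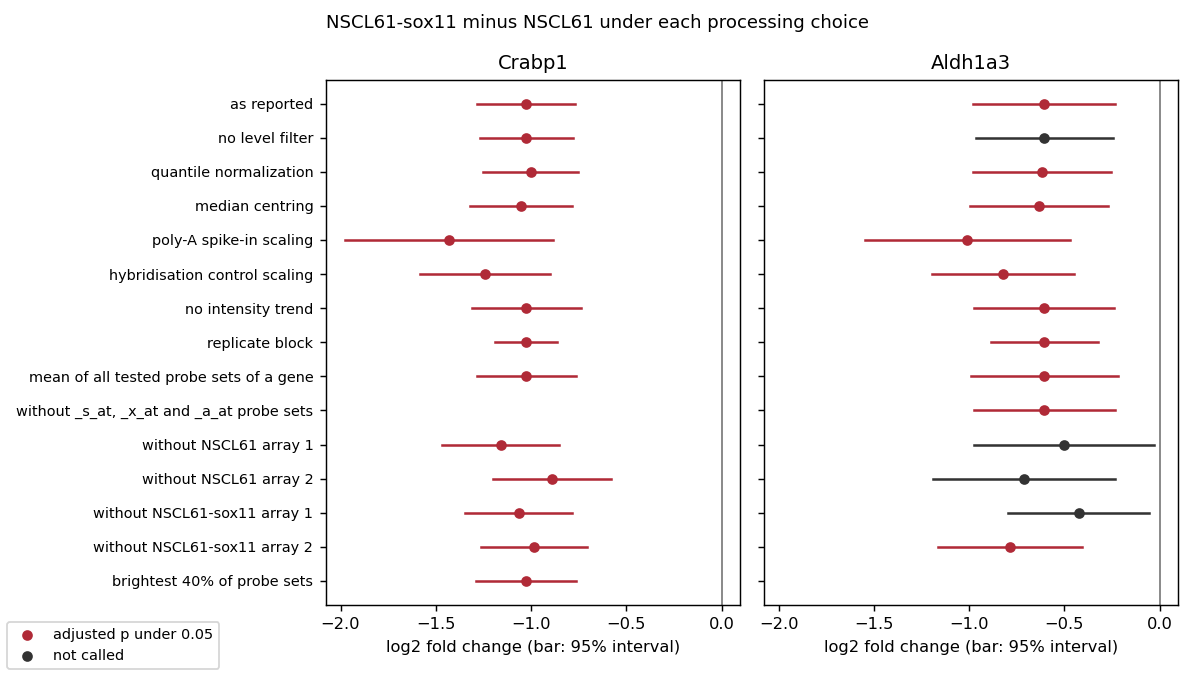
Log2 fold change (NSCL61-sox11 minus NSCL61) of Crabp1 and Aldh1a3 with 95% intervals as reported and under each processing choice that gave a value; red marks a limma adjusted p under 0.05. Crabp1 is red wherever it has a value, whereas Aldh1a3 turns black without a level filter and in 3 of the 4 settings that leave out 1 array.

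The other genes of retinoid metabolism and response were read from 4 lists of 102 genes, of which 91 have a probe set of their own here and 62 were tested. Among these 62 genes 7 rose, 9 fell and 46 did not pass, so 25.8% were called, against 19.2% of all genes; the median log2 fold change was -0.04. Under poly-A spike-in scaling, which moved the median of all genes to -0.42, 1 rose and 9 fell, and with hybridisation control scaling 5 rose and 14 fell. Leaving out NSCL61 array 1 left 9 called (5 up, 4 down), and leaving out NSCL61 array 2 left 8 (5 up, 3 down). With each gene taken as the mean of its tested probe sets, 10 rose and 8 fell, so the balance between the directions depends on which probe sets stand for a gene.

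Of 16 tested genes of retinoid synthesis, storage and transport, 2 rose, 3 fell and 11 did not pass. Dhrs4, a peroxisomal retinol dehydrogenase and retinal reductase, read 8.19 and 8.24 in NSCL61 and 6.11 and 6.24 in NSCL61-sox11, a 4.12-fold fall (log2 fold change -2.04, SE 0.10, limma adjusted p = 0.00014). Its second tested probe set fell by 2.40 on the log2 scale (adjusted p = 0.00011). Rdh5, known for oxidising 11-cis retinol in the eye, read 6.97 and 7.56 against 5.84 and 6.15, a 2.41-fold fall (adjusted p = 0.011). The arrays of the lines did not overlap for either gene, and the difference of Dhrs4 was larger than that of any of the 9 members.

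Aldh1a7, a close paralog of Aldh1a1, read 4.47 and 4.16 in NSCL61 and 6.43 and 5.92 in NSCL61-sox11, a 3.62-fold rise (log2 fold change 1.86, SE 0.19, limma adjusted p = 0.0022). NSCL61 lay below 5.15, so Aldh1a7 passed the level filter only through its NSCL61-sox11 arrays, and its place in the counts is a description. With no level filter it was also called (limma adjusted p = 0.0013). The size of this rise is uncertain, as is any split of signal between such similar genes. The Aldh1a1 probe set overlapped between the lines. Lrp2, an endocytic receptor that takes up retinol with its carrier among many ligands, fell 1.98-fold (adjusted p = 0.041). The related receptor Lrp1 rose 1.56-fold (adjusted p = 0.0076). Lrp2 was no longer called with the trend dropped from the model (adjusted p = 0.057) or with NSCL61 array 1, NSCL61 array 2 or NSCL61-sox11 array 2 left out (adjusted p of 0.20, 0.057 and 0.059). Lrp1 was no longer called with either NSCL61 array left out (adjusted p of 0.073 and 0.055), under poly-A scaling (adjusted p = 0.50) or under hybridisation control scaling (adjusted p = 0.068).

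Of the 3 tested genes of clearance and binding limma called 0, and 1 had an unadjusted p under 0.05. This was Fabp5, which can carry retinoic acid to the receptor PPARD, at 11.21 and 11.07 in NSCL61 and 10.97 and 10.63 in NSCL61-sox11 (log2 fold change -0.34, 95% interval -0.64 to -0.05, adjusted p = 0.11). Cyp26a1, a clearance enzyme that retinoic acid itself induces, read 5.55 and 5.38 against 5.48 and 5.37, and differed by -0.04 (95% interval -0.32 to 0.24, adjusted p = 0.86).

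**Figure D4:**
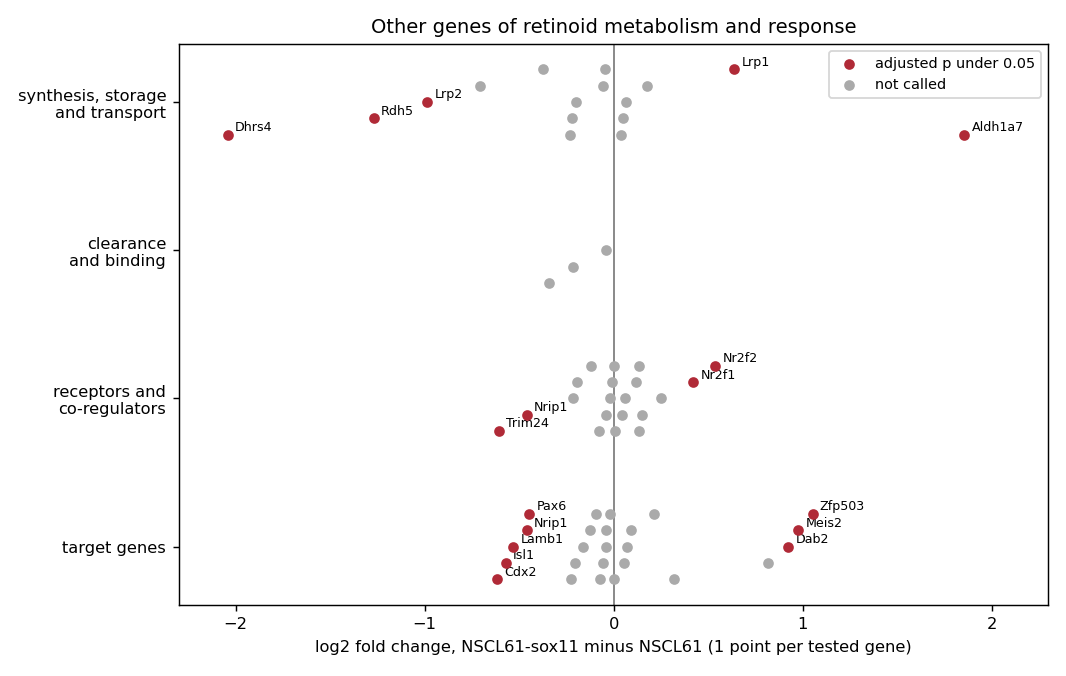
Log2 fold change (NSCL61-sox11 minus NSCL61) of each tested gene of the 4 lists other than the 9 members; red points passed a limma adjusted p under 0.05 and carry their symbol, and the vertical offset within a list only separates the points. Dhrs4 at -2.04 and Aldh1a7 at 1.86 lie farthest from 0; Nrip1 and Cyp26a1 stand in 2 lists each.

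The receptors of retinoic acid were compared on each gene's brightest tested probe set. On these limma called 0 of the 5 genes Rara, Rarg, Rxra, Rxrb and Rxrg, and 0 had an unadjusted p under 0.05. Their log2 fold changes lay between -0.08 and 0.15, with 95% intervals inside -0.33 to 0.37. A second tested probe set of Rxra, a partner of the retinoic acid receptors, rose by 0.85 (adjusted p = 0.0046), so the Rxra probe sets disagreed. Rarb, both a receptor and a classical target, lay below the level filter. Among 20 tested receptors and co-regulators 2 rose, 2 fell and 16 did not pass. The orphan receptor genes Nr2f2 and Nr2f1 (COUP-TFs, which bind the same kind of response element) rose by 0.54 (adjusted p = 0.0082) and 0.42 (adjusted p = 0.022). Other tested Nr2f2 probe sets rose by 0.06 to 0.45, and not all were called (limma adjusted p from 0.030 to 0.74). The mean over the tested Nr2f2 probe sets was 0.37 (adjusted p = 0.034). Trim24, a cofactor of retinoic acid receptors, and the corepressor gene Nrip1 fell by 0.61 (adjusted p = 0.014) and by 0.46 (adjusted p = 0.039). A second tested probe set of Trim24 differed by -0.48 and was not called (adjusted p = 0.058).

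The calls of Nr2f2 and Nr2f1 were lost with poly-A scaling, where they were 0.13 (adjusted p = 0.70) and 0.02 (adjusted p = 0.96), and with hybridisation control scaling (adjusted p = 0.18 and 0.40). Leaving out NSCL61 array 1 ended both (adjusted p = 0.088 and 0.17), as did leaving out NSCL61 array 2 (adjusted p = 0.055 and 0.11). Trim24 was no longer called with NSCL61 array 2 left out (adjusted p = 0.11). Nrip1 was no longer called with NSCL61 array 1, NSCL61 array 2 or NSCL61-sox11 array 1 left out (adjusted p of 0.17, 0.18 and 0.097), and its mean over all probe sets was -0.28 (adjusted p = 0.099).

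Of 25 tested genes that retinoic acid is known to regulate, 3 rose, 5 fell and 17 did not pass. Among the 17 is Hoxa5, whose tested probe sets disagreed. The brighter differed by -0.23 (limma adjusted p = 0.15), whereas the dimmer rose by 0.90 (adjusted p = 0.0042). The zinc finger gene Zfp503 rose 2.07-fold (limma adjusted p = 0.0048), the homeobox gene Meis2 1.97-fold (adjusted p = 0.0012) and the endocytic adaptor gene Dab2 1.90-fold (adjusted p = 0.0011). All 4 tested Dab2 probe sets and all 3 of Meis2 were called upwards. The second tested Zfp503 probe set rose by only 0.47 on the log2 scale and did not pass (adjusted p = 0.057). With poly-A scaling Zfp503, Meis2 and Dab2 kept their sign and lost their calls, at 0.65 (adjusted p = 0.14), 0.57 (adjusted p = 0.18) and 0.52 (adjusted p = 0.20). The homeobox gene Cdx2 fell by 0.62 on the log2 scale (adjusted p = 0.010), a call that ended with NSCL61 array 1 left out (adjusted p = 0.087). The others that fell were Isl1, Lamb1, Nrip1 and Pax6, by 0.57, 0.53, 0.46 and 0.45 on the log2 scale. None of these 4 was called with either NSCL61 array left out (adjusted p of 0.078 to 0.21), nor Isl1 and Pax6 with NSCL61-sox11 array 1 left out (adjusted p of 0.088 and 0.11), nor Pax6 under poly-A scaling (adjusted p = 0.055). Stra8, a direct target in many cells, differed by 0.09 (adjusted p = 0.64). The probe sets of Tgm2, another gene of this list, disagreed. The brightest differed by -0.07 (limma adjusted p = 0.74). By contrast, 3 dimmer ones rose by 0.67, 0.80 and 0.90 (adjusted p = 0.024, 0.043 and 0.039). A further one differed by 0.63 (adjusted p = 0.084).

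The genes whose values over the 4 arrays were most like those of Crabp1, after taking off each gene's mean, were Plac8, Col4a6 and Prkar2b. Their root mean square differences from Crabp1 were 0.05, 0.05 and 0.06 log2 units, among 13083 genes compared. Plac8 fell by 1.03, Col4a6 by 1.00 and Prkar2b by 0.92 on the log2 scale (limma adjusted p = 0.0038, 0.0019 and 0.0037). With 4 arrays in 2 groups such likeness says little more than that these genes had falls of similar size. The nearest tested neighbours of Crabp1 on its chromosome did not share its fall. Dnaja4 rose by 1.10 on the log2 scale (adjusted p = 0.0012), while Wdr61, Ireb2 and Hykk differed by -0.03, 0.33 and 0.05 (adjusted p = 0.84, 0.055 and 0.81).

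The labels were checked on Sox11, whose brightest tested probe set read 5.09 and 4.82 in NSCL61 and 7.74 and 7.97 in NSCL61-sox11; its other probe sets were also higher there, 6 of 6 in all. Of 10 neural stem and progenitor markers 9 passed the level filter in these cells and Fabp7 did not. Of these 9, 1 rose, 3 fell and 5 did not pass, so 44.4% were called, against 19.2% of all genes. Slc1a3 rose 2.28-fold and Sox2 fell 3.24-fold (limma adjusted p = 0.0030 and 0.0019). Pax6 and Vim fell by 0.45 and 0.21 on the log2 scale (adjusted p = 0.040 and 0.020). Of 9 tested markers of meninges and fibroblasts, tissues that also make retinoic acid, 5 rose and none fell, where 10% of all genes rose. Of the 4 not called, Col3a1 and Dcn differed by 1.04 and 0.36, and Zic1 and Twist1 by -0.22 and -0.09. Zic1 had an unadjusted limma p of 0.041. The mean level of the 9 markers was 7.62 to 7.95 on the NSCL61 arrays and 8.67 to 8.93 on the NSCL61-sox11 arrays, with Lum, Foxd1, Tbx18 and Slc6a13 below the filter. Some markers of other cell types also changed. Rgs5 and Acta2 rose among 5 tested markers of endothelial and mural cells. The others of that list were not called: Cdh5 differed by -0.59 (limma adjusted p = 0.053), Kdr by 0.10 and Cldn5 by 0.09. Pdgfra rose among 4 markers of the oligodendrocyte lineage, and of 5 neuronal markers Tubb3 and Syt1 rose and Gap43 fell. Limma called 0 of 5 astrocyte markers, of which Gfap alone had an unadjusted p under 0.05. The part of these shifts in the retinoid values was not tested. In bulk RNA, fewer cells that express a gene and less RNA per cell cannot be told apart.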

How the data were processed

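Total RNA of 2 NSCL61 and 2 NSCL61-sox11 samples was labelled with biotin and hybridised to Affymetrix M430_2 arrays, 1 per sample, per the labels' protocols. The deposited values, 45101 probe sets per array, were read as log2 from their range of 2.13 to 14.62; the authors' summarisation and normalization are not stated in what was used here. Their trimmed means were 6.21 to 6.22, so no further scaling was applied, and the number of arrays limits the precision.

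GEO's platform annotation gave the gene names (34945 with 1 symbol, 932 with several, 9160 with none), and 64 control probe sets were left out. NSCL61-sox11 was tested against NSCL61 in R 4.3.3 with limma 3.58.1 (lmFit, eBayes with intensity trend, two-sided; 2 residual degrees of freedom, 6.36 after moderation) on 27022 probe sets with means of at least 5.15. Benjamini-Hochberg adjustment ran over all of these, and calls are adjusted p under 0.05. A gene is represented by its brightest tested probe set. Members below the filter come from a fit of all non-control probe sets. Errors are SD over 2 arrays or moderated SE; an exact permutation test of 2 against 2 arrays cannot go below p = 0.333. The script was tested on simulated data.

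The members and lists were chosen with earlier results of these data known. Named were all members, the most changed called genes of each list, at most 4 (the 2 brightest in a list with no call), Sox11 and the 3 genes most like the most changed member. Lrp1, Isl1, Lamb1, Pax6, Hoxa5, Tgm2, Stra8, the 5 receptor genes and the neighbours of Crabp1 were chosen after their values were seen. Promoter sequence is from RefSeq (GRCm38.p6), with entries for 6 of 9 members.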

Additional observations from a re-analysis of the deposited data

How the results depend on the processing

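Alternatives were the level filter, scaling, intensity trend, replicate block, representative probe set, probe set type and leaving out each array; leaving 1 array in a line assumes that it varies like the other line. The count of member genes called, 2 as reported, was 1 with all probe sets tested, with only the brightest 40% tested (which leave 2 members) and without _s_at, _x_at and _a_at probe sets (which leave out Crabp1), and 1 to 2 when 1 array was left out. The count of member probe sets called was 1 with all or with the brightest 40% tested, and 1 to 2 when 1 array was left out. It was not recomputed by gene mean or without _s_at, _x_at and _a_at probe sets. Pathway genes called were 10 with poly-A scaling and 8 to 17 when 1 array was left out, instead of 16. Over all genes, 1354 were called with poly-A scaling (303 up, 1051 down), 4830 with the replicate block and 913 to 2686 when 1 array was left out, instead of 2510. The split of directions over all genes was 1308 up and 1202 down as reported, and 702 up and 2336 down with hybridisation control scaling. The difference of array 1 and array 2 was partly correlated between the lines (r = 0.41 over 27022 probe sets). Arrays of the same number thus tended to deviate together, but with 2 pairs the labels give only a shared number. With the replicate block 2 member genes were called, Crabp1 and Aldh1a3. Aldh1a1, Aldh1a2, Cyp26b1 and Rdh10 changed sign under some settings without passing the test. Signal limits the genes below the filter, where a change may be understated.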
